A study of Populus tremula x Populus alba with 20 samples.

Results

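The chilling response of apical buds was measured in 2 hybrid poplar lines, TEML2_1ox and TEML2_2ox, that overexpress the TEMPRANILLO-like protein TEML2. The response was taken from the 4 TEML2 libraries of the chilled harvest (CH2) against the 4 TEML2 libraries of the short-day harvest (SD8). These 8 libraries were chosen by genotype and harvest from the 20 of the series, which also holds 8 libraries of TEML1 overexpressors (lines TEML1_1ox and TEML1_2ox) and 4 of wild type (WT). All plants were Populus tremula x Populus alba multiplied in vitro. They were potted and grown in long days at 22 °C for 4 weeks by the growth protocol or 6 weeks by the design text. SD8 plants then had 8 weeks of short days, in which growth stopped and buds formed. CH2 plants had the same 8 weeks and then 2 more weeks of short days at 4 °C. Both harvests were taken at ZT7, that is 7 h after the start of the light period.

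Each line had 2 replicates per harvest, called biological by the labels. A replicate pooled 2 plants by the extraction protocol or 3 buds by the design text. The control plants are labelled wild type. The promoter of the transgene is not given in the sources used here. The labels do not say how the lines were obtained, and with 1 set of libraries for each a difference between them cannot be told apart from a difference between transformants. SD8 and CH2 libraries differ in age, in temperature and in the table that holds them, and these cannot be told apart. Bulk RNA also cannot tell fewer cells of a type from less RNA per cell.

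Poplars and other temperate trees stop growing when days shorten, and the shoot apex becomes enclosed in a bud that turns dormant. Long exposure to cold then restores the ability to grow, and this release of dormancy is the process named in the series title. In Arabidopsis, TEMPRANILLO proteins act as transcription factors that delay flowering. The files do not pair identifiers with gene names. Genes therefore appear as identifiers, no role is given to any of them, bud markers were not checked, and the level of the TEML2 gene itself is not reported here.

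The 8 libraries held 35810611 to 39352645 counts over 31823 listed genes. In each of the 4 line and harvest groups the replicates differed by more than sampling noise, with a chi-square per degree of freedom of 6.75 to 9.97, and each library was kept. Levels below are in CPM, the read counts relative to the library total after TMM scaling over all 20 libraries, and adjusted p means the Benjamini-Hochberg adjusted p of edgeR's quasi-likelihood F test, with a threshold of 0.05. Fold changes are given as log2 with an approximate SE. The p-values measure the spread between these libraries, and libraries of 1 line were counted as independent. The mean response of TEML2ox was compared with those of WT and TEML1ox in a fit with 1 group per line and harvest. Those p-values hold the spread between replicates of a line and leave out the spread between lines.

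The harvests lay farther apart than the lines. The first principal component of the 8 libraries held 80.5% of the variance and the second 8.93%. The 4 CH2 libraries lay between 97.3 and 117 on the first component. TEML2_1ox SD8 libraries lay at -78.5 and -83.0, and TEML2_2ox SD8 libraries at -129 and -131. On this component the SD8 libraries of the lines stood apart, while the CH2 libraries of the lines were mixed. On the second the CH2 libraries lay at 3.42 and -1.52 in TEML2_1ox and at 10.01 and 11.8 in TEML2_2ox, and the SD8 libraries at -51.2 and -59.4 and at 44.3 and 42.6. As a distance, the root mean square difference in log2 CPM between harvests was 1.21 to 1.33 within TEML2_1ox and 1.43 to 1.50 within TEML2_2ox. Between lines it was 0.725 to 0.745 at SD8 and 0.448 to 0.472 at CH2, where it overlapped the 0.311 to 0.477 between replicates.

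**Figure D1:**
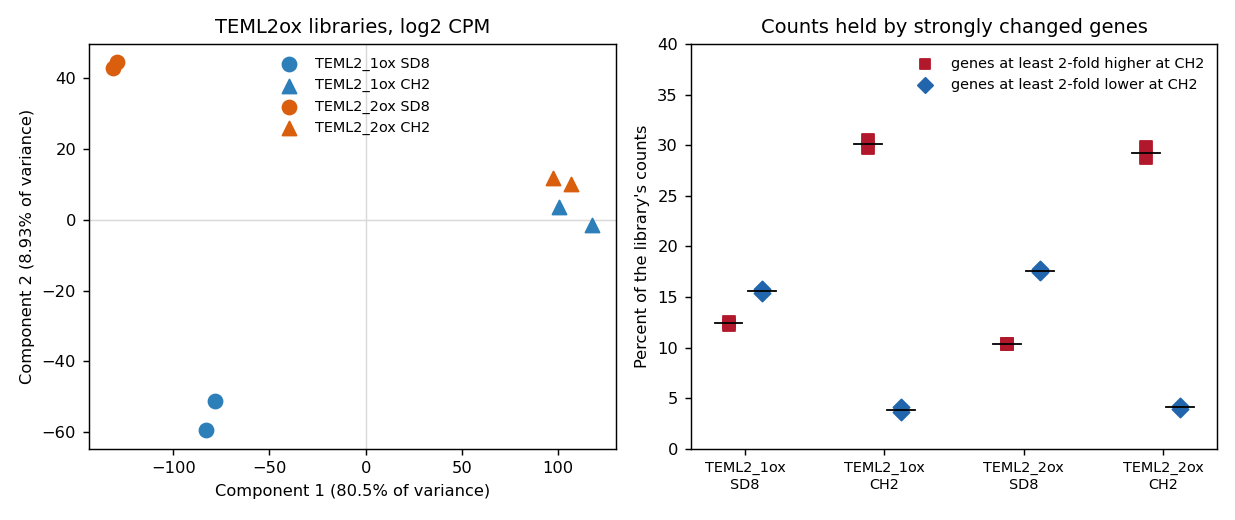
Left, the 8 TEML2ox libraries on their first 2 principal components (log2 CPM, percent of variance on each axis). Right, the percent of each library's counts (vertical axis) in genes called at least 2-fold higher and in genes called at least 2-fold lower after chilling, by line and harvest, where each point is 1 library. The CH2 libraries of both lines lie together at 28.7 to 30.5% for the higher genes, above all 4 SD8 libraries.

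With line as a covariate, 20218 of 26794 tested genes changed between SD8 and CH2, which is 75.5% of those tested. After chilling 9804 genes were higher (36.6%) and 10414 lower (38.9%). Over all called genes falls were larger than rises: the median log2 fold change was 0.69 among higher and -1.17 among lower genes. At least 2-fold changes numbered 2850 higher (10.6%) and 5961 lower (22.2%). At least 8-fold changes numbered 269 higher (1%) and 1190 lower (4.44%), and at least 32-fold changes 70 and 324. A test against a 2-fold change, in place of any change, called 6082 genes, 1881 higher and 4201 lower.

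The split by direction depended on scaling. The median gene was at a log2 fold change of -0.044 with TMM, -0.200 with upper-quartile factors and -0.348 with library totals alone. By library totals alone 6426 genes were higher and 13803 lower, so 31.8% of the calls were higher against 48.5% with TMM. The TMM factors were 1.07 to 1.16 in SD8 and 0.893 to 0.916 in CH2 libraries.

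**Figure D2:**
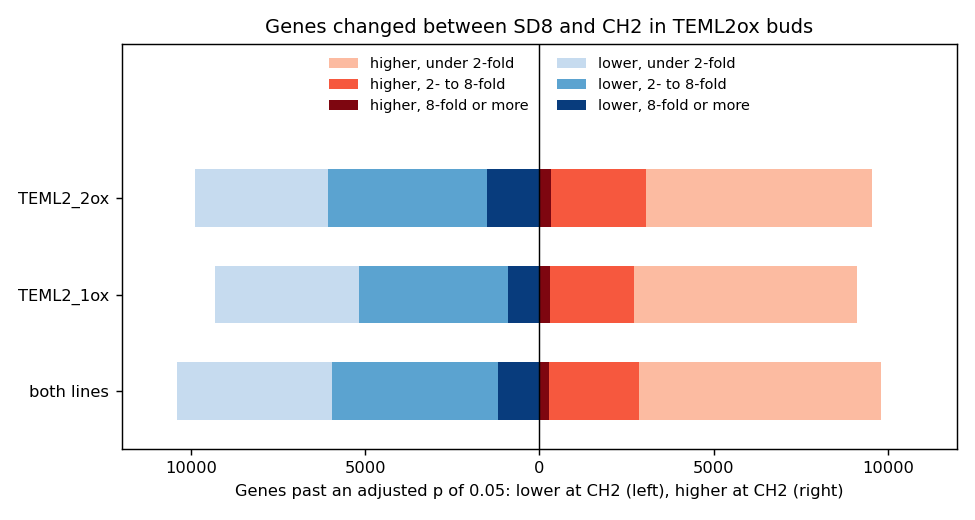
Number of genes called lower (left) or higher (right) in CH2 than in SD8 TEML2ox buds (horizontal axis). Bars are for both lines together, TEML2_1ox and TEML2_2ox (vertical axis), from fits of the 8 libraries. Darker colours mark changes of at least 2-fold and of at least 8-fold. For both lines together lower genes outnumber higher ones, 5961 to 2850 at 2-fold or more and 1190 to 269 at 8-fold or more.

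The gene with the largest rise that had at least 10 counts in every library was PtXaAlbH.13G005600.v5.1. At SD8 it stood at 3.19 and 2.46 CPM in TEML2_1ox and 1.38 and 0.894 in TEML2_2ox, and at CH2 at 961, 1065, 1070 and 916 CPM. All CH2 libraries were far above all SD8 libraries, and the log2 fold change was 9.06 ± 0.27 (SE, adjusted p = 3.73e-09). The next was PtXaAlbH.01G270500.v5.1, which went from 0.374, 0.680, 0.689 and 0.425 CPM at SD8 to 54.8, 63.0, 55.3 and 44.3 at CH2, each time TEML2_1ox first. Its log2 fold change was 6.64 ± 0.17 (SE, adjusted p = 1.99e-09), and here the SD8 levels of the lines overlapped.

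PtXaAlbH.11G107400.v5.1 fell most. Its SD8 levels were 101 and 114 CPM in TEML2_1ox and 192 and 212 in TEML2_2ox, and its CH2 levels 1.48, 1.21, 1.42 and 1.78 CPM. The harvests did not overlap, and the log2 fold change was -6.67 ± 0.14 (SE, adjusted p = 1.20e-09). PtXaAlbH.15G033900.v5.1 stood at 46.8, 31.1, 96.9 and 99.3 CPM at SD8 and at 0.551, 0.564, 0.512 and 1.25 at CH2, in the same order of libraries, with a log2 fold change of -6.52 ± 0.23 (SE, adjusted p = 7.77e-09). For both falling genes the TEML2_2ox level was the higher at SD8, and the lines lay close together at CH2.

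Fewer genes were detected in chilled buds. Genes with at least 10 counts numbered 25834 and 25880 in TEML2_1ox and 26383 and 26393 in TEML2_2ox at SD8. At CH2 they numbered 24782 to 24929. The difference of -1268 genes had p = 0.0286 in an exact 2-sided permutation test, the smallest p that 4 against 4 libraries allow (also 0.0286 after adjustment over the 2 measures tested this way). This cut is on raw counts, and with the lower TMM factors of CH2 libraries 10 counts stand for a higher CPM there. How much of the difference comes from this was not tested. Of 31823 genes 563 had at least 10 counts in every SD8 and under 10 in every CH2 library, and 109 showed the converse. Switches from at least 10 counts in every library of 1 harvest to 0 in every library of the other were rare, 56 after chilling and 18 in the opposite sense. Most genes, 23589 of 31823, kept at least 10 counts in all 8 libraries.

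The 100 most abundant genes of a library held 18.04 and 17.9% of its counts in TEML2_1ox SD8 buds and 12.9 and 13.3% in TEML2_2ox SD8 buds. At CH2 they held 19.2 and 18.6% in TEML2_1ox and 18.5% in both TEML2_2ox libraries. The mean difference was 3.18 percentage points (exact 2-sided permutation test, p = 0.0286, 4 against 4 libraries), and most of it lay in TEML2_2ox. Without any 1 of the 4 CH2 libraries (TEML2_1ox or TEML2_2ox, replicate 1 or 2) the difference was 3.01 to 3.25 points with p = 0.143 to 0.171 (exact permutation test). For the 10 most abundant genes the mean difference was 0.640 points (exact permutation test, p = 0.543), and the lines went in opposite directions. Their share went from 9.26 and 9.14% to 8.23 and 7.83% in TEML2_1ox and from 5.25 and 5.49% to 7.77 and 7.89% in TEML2_2ox.

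How calls fell by abundance depended on the harvest that set the abundance class. Classed by mean level at SD8, 41.9% of 31 genes over 1000 CPM were higher and 48.4% lower after chilling, and of 1472 genes at 100 to 1000 CPM 50.1% were higher and 30.8% lower. By library totals alone the latter shares were 33.8% and 47.5%, the other way round. Of 14131 genes at 10 to 100 CPM at SD8 45.7% were higher and 35.4% lower, against 28.9% and 49.9% by library totals alone. Of 8119 genes at 1 to 10 CPM at SD8 24.3% were higher and 48.4% lower, and of 3041 under 1 CPM 20.6% and 33.4%. Classed by mean level at CH2, 90.8% of 65 genes over 1000 CPM were higher and 3.08% lower, and of 4517 genes under 1 CPM 5.96% were higher and 61.8% lower. In the class of 1 to 10 CPM at CH2 the shares of 7706 genes were 17.7% and 54.1%, so that genes under 10 CPM were more often lower than higher by either harvest. Of 12303 genes at 10 to 100 CPM at CH2 51.8% were higher and 26.4% lower, and by library totals alone 32.2% and 42.6%. Changes of at least 2-fold at 1 to 10 CPM at SD8 were 9.95% higher and 33.5% lower. At 100 to 1000 CPM at SD8 they were 12.0% and 12.8%, against 6.39% and 17.3% by library totals alone. At 10 to 100 CPM at CH2 they were 10.6% higher and 6.04% lower, against 5.55% and 10.7% by library totals alone. A gene's own change helps set its class, in opposite directions for the 2 harvests, so these shares are a description. Of the 100 genes most abundant at CH2, a choice that favours risers, 89 had risen, 69 of them at least 2-fold, and 3 had fallen. Of the 100 most abundant at SD8, a choice that favours fallers, 40 had risen and 44 fallen, and 49 genes were in both sets of 100. Genes called at least 2-fold higher held 12.6 and 12.2% of the counts in TEML2_1ox and 10.4% in both TEML2_2ox SD8 libraries, against 28.7 to 30.5% at CH2. Since the calls chose these genes, their shares are a description.

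**Figure D3:**
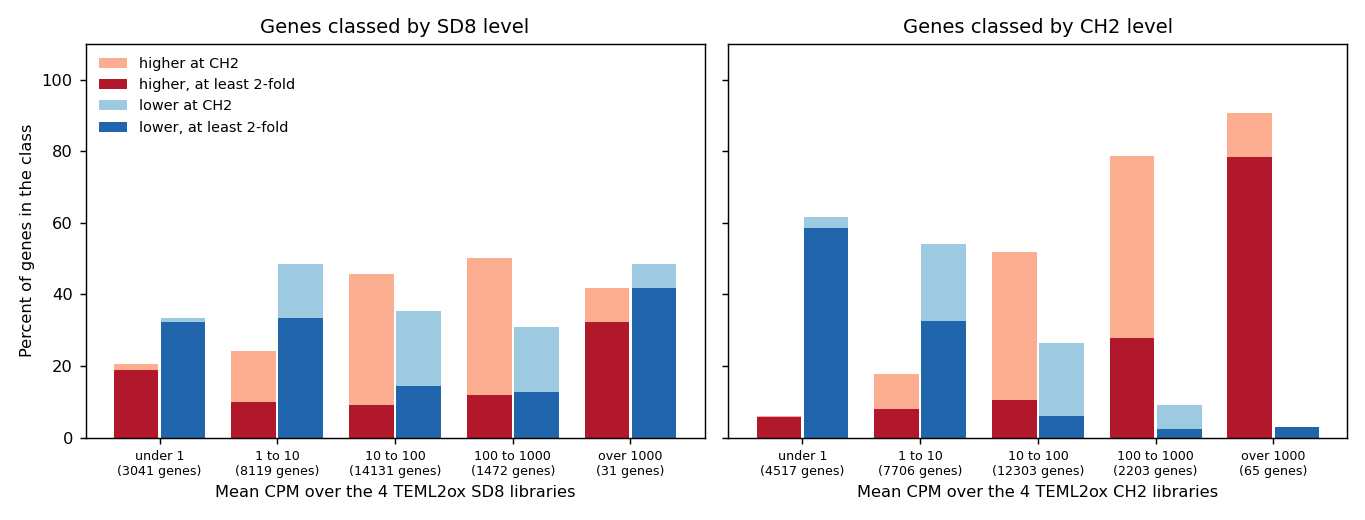
Percent of tested genes called higher or lower after chilling, with the part of at least 2-fold in darker colour (vertical axis), by mean CPM class over the 4 SD8 libraries (left) or the 4 CH2 libraries (right). Of the genes over 1000 CPM 41.9% are called higher when classed at SD8 and 90.8% when classed at CH2.

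Each line was also tested alone. In TEML2_1ox 18410 of 26794 genes changed (68.7%), 9106 higher (34%) and 9304 lower (34.7%). By at least 2-fold 2716 were higher (10.1%) and 5178 lower (19.3%). In TEML2_2ox 19436 genes changed (72.5%), 9549 higher (35.6%) and 9887 lower (36.9%), and by at least 2-fold 3064 higher (11.4%) and 6065 lower (22.6%). At 8-fold TEML2_1ox had 293 higher (1.09%) and 899 lower genes (3.36%) and TEML2_2ox 341 (1.27%) and 1502 (5.61%). By library totals alone the share of higher calls was 33.7% in TEML2_1ox and 30.3% in TEML2_2ox, against 49.5% and 49.1% with TMM.

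The lines share no library, so their responses can be set side by side. Both lines changed in the same direction at 15934 genes (59.5%), 7996 higher (29.8%) and 7938 lower (29.6%), which is 86.6% of the TEML2_1ox calls and 82.0% of the TEML2_2ox calls. They changed in opposite directions at 171. In a new fit by library totals alone the genes called in the same direction in both lines were 4883 higher and 11019 lower. By upper-quartile factors they were 6304 and 9470. Over all genes tested the log2 fold changes of the lines had a Pearson r of 0.824, and over 15415 genes with at least 10 CPM on average 0.938, as a description across genes, which are not independent replicates. The slope of TEML2_2ox on TEML2_1ox along the major axis was 1.19, so fold changes along it were larger in TEML2_2ox.

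By difference in mean CPM among genes whose harvests did not overlap, PtXaAlbH.06G007600.v5.1 was the largest riser in TEML2_1ox and the second in TEML2_2ox. It went from 2937 and 2656 to 15008 and 13938 CPM in TEML2_1ox, and from 1356 and 1508 to 12741 and 11522 CPM in TEML2_2ox. The log2 fold changes were 2.39 ± 0.09 (SE, adjusted p = 6.37e-10) and 3.09 ± 0.10 (SE, adjusted p = 7.75e-11), and the difference between them passed its own test (0.70 ± 0.13, adjusted p = 0.00513). PtXaAlbH.13G054400.v5.1 rose from 2511 and 2387 to 11085 and 11442 CPM in TEML2_1ox, with a log2 fold change of 2.22 ± 0.10 (SE, adjusted p = 2.25e-09).

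PtXaAlbH.13G084200.v5.1, which had the most counts of any gene in all 20 libraries, went in opposite directions in the lines. In TEML2_1ox it fell from 50514 and 49189 CPM to 36777 and 31995. In TEML2_2ox it rose from 21444 and 23871 CPM to 32955 and 38238. The SD8 levels of the lines were far apart and the CH2 levels overlapped. Its log2 fold change was -0.52 ± 0.10 in TEML2_1ox (SE, adjusted p = 0.000511) and 0.66 ± 0.10 in TEML2_2ox (SE, adjusted p = 6.94e-05), and the responses differed by 1.17 ± 0.14 (SE, adjusted p = 0.000535). In the fit of all 20 libraries the fall in TEML2_1ox had an adjusted p of 0.0683. WT held 26418 and 28606 CPM of this gene at SD8 and TEML1ox 40275 to 48784, so the TEML2_2ox libraries lay below all others at that harvest.

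PtXaAlbH.13G084300.v5.1 fell from 10386 and 10158 CPM to 2928 and 2698 in TEML2_1ox, a log2 fold change of -1.85 ± 0.09 (SE, adjusted p = 5.20e-09). In TEML2_2ox it was at 3319 and 3333 CPM at SD8 and at 2675 and 3235 at CH2 (-0.17 ± 0.09, adjusted p = 0.115), so its level before chilling was already near the chilled one. Among genes whose harvests did not overlap, the largest falls in mean CPM in TEML2_2ox were those of PtXaAlbH.04G010300.v5.1 and PtXaAlbH.03G180200.v5.1. The former went from 6119 and 5592 to 1670 and 1999 CPM, and the latter from 3065 and 2691 to 660 and 594 CPM. Their log2 fold changes were -1.67 ± 0.20 (SE, adjusted p = 7.01e-06) and -2.19 ± 0.09 (SE, adjusted p = 6.11e-10), and in TEML2_1ox -1.93 ± 0.20 and -2.60 ± 0.09.

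**Figure D4:**
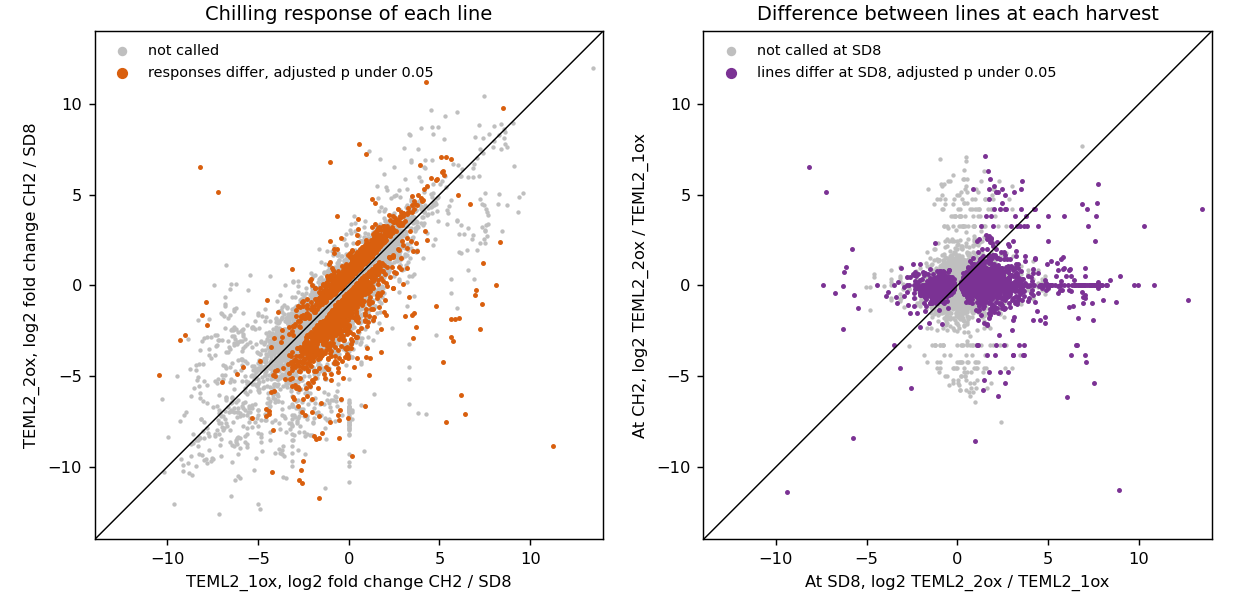
Each point is 1 of 26794 genes. Left, the log2 fold change CH2 against SD8 in TEML2_2ox (vertical axis) against that in TEML2_1ox (horizontal axis), with r = 0.824. Right, the log2 difference of TEML2_2ox from TEML2_1ox at CH2 (vertical axis) against that at SD8 (horizontal axis), where the spread is wide at SD8 and narrow at CH2 and r = 0.106.

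Before chilling the lines differed at 7775 of 26794 genes (29%), 4195 higher (15.7%) and 3580 lower (13.4%) in TEML2_2ox. Large differences were mostly upward: 1550 genes were at least 2-fold higher in TEML2_2ox (5.78%) and 370 at least 2-fold lower (1.38%), and at 8-fold 241 were higher (0.899%) and 23 lower (0.0858%). By library totals alone 5989 were higher and 2160 lower, and the median gene moved from 0.001 to 0.105. Without TEML2_2ox SD8 replicate 1 the count was 3929, and with any other single library left out it was at most 8329.

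After chilling edgeR called 49 genes between the lines (0.183%), 17 higher (0.0634%) and 32 lower (0.119%) in TEML2_2ox. An unadjusted p under 0.05 was reached by 2092 genes. DESeq2 called 144, and by library totals alone 22 were higher and 26 lower. The count rested on single libraries: it was 211 and 105 without TEML2_1ox CH2 replicate 1 and 2, 11 and 14 without TEML2_2ox CH2 replicate 1 and 2, 19 without either TEML2_2ox SD8 replicate and 74 without TEML2_1ox SD8 replicate 2. Of the 7775 genes that differed at SD8, 30 (0.386%) also differed at CH2, 28 of them in the same direction. Over the 7775 genes the median absolute log2 difference between lines was 0.56 at SD8, in the libraries that chose them, and 0.11 at CH2. Of the 1550 genes at least 2-fold higher in TEML2_2ox at SD8, 134 were still at least 2-fold higher by estimate at CH2, and 16 of the 370 were still at least 2-fold lower.

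Among called genes with at least 10 counts in every library compared, PtXaAlbH.08G111100.v5.1 showed the pattern at its largest. It stood at 246 and 245 CPM in TEML2_2ox and 1.60 and 2.46 in TEML2_1ox at SD8. At CH2 the levels were 1.82 and 3.01 CPM in TEML2_2ox and 5.77 and 1.69 in TEML2_1ox, so the lines overlapped only after chilling. The SD8 difference was 6.93 ± 0.33 on the log2 scale (SE, adjusted p = 1.54e-07). Among the other genotypes it was highest in TEML1_1ox SD8 replicate 1, at 33.6 CPM. PtXaAlbH.12G022200.v5.1 was at 43.7 and 42.3 CPM in TEML2_2ox and 0.573 and 0.889 in TEML2_1ox at SD8, a log2 difference of 5.88 ± 0.21 (SE, adjusted p = 1.22e-08), and at 0.0846 to 0.390 CPM in all 4 CH2 libraries.

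Of the genes lower in TEML2_2ox at SD8, PtXaAlbH.01G018200.v5.1 was at 4.76 and 6.10 CPM against 33.9 and 36.9 in TEML2_1ox, a log2 difference of -2.70 ± 0.19 (SE, adjusted p = 2.24e-06). At CH2 the lines held 622 and 457 against 458 and 618 CPM, which overlap. PtXaAlbH.15G058400.v5.1 was at 0.467 and 0.581 CPM against 2.17 and 4.76 at SD8, a log2 difference of -2.71 ± 0.39 (SE, adjusted p = 0.000299). At CH2 it was at 1.62 and 2.26 CPM in TEML2_2ox and 3.80 and 4.35 in TEML2_1ox, which do not overlap.

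A difference that stayed through chilling was that of PtXaAlbH.05G195400.v5.1. TEML2_2ox held 81.5 and 89.9 CPM at SD8 and 82.0 and 77.1 at CH2, and TEML2_1ox 32.8 and 31.9 at SD8 and 26.1 and 25.1 at CH2. The line difference at CH2 was 1.63 ± 0.08 (SE, adjusted p = 1.21e-06), and the other 12 libraries of the series lay between 21.6 and 32.3 CPM, so this gene was higher in TEML2_2ox than in every other line at both harvests. PtXaAlbH.10G121800.v5.1 was at 2.13 and 2.09 CPM in TEML2_2ox and 0.319 and 0.367 in TEML2_1ox at CH2. The log2 difference was 2.61 ± 0.27 (SE, adjusted p = 0.00135), with an adjusted p of 0.0683 in the fit of all 20 libraries. WT held 2.36 to 2.99 CPM of this gene at CH2 and TEML1ox 0.892 to 1.95. At SD8 TEML2_1ox held 3.77 to 4.81 CPM, TEML2_2ox 15.03 to 15.64, WT 13.02 to 14.91 and TEML1ox 8.74 to 19.13. The log2 line difference at SD8 was 1.84 ± 0.16 (SE, adjusted p = 9.04e-06). For this gene TEML2_1ox thus lay below every other line at both harvests. Among called genes with at least 10 counts in every library compared, PtXaAlbH.01G091800.v5.1 (-2.58 ± 0.43) and PtXaAlbH.03G171100.v5.1 (-2.30 ± 0.39) lay furthest below TEML2_1ox at CH2. Both had an adjusted p of 0.0416. Both lost the call without either TEML2_2ox SD8 replicate, either TEML2_2ox CH2 replicate or TEML2_1ox CH2 replicate 2, with an adjusted p of up to 0.360 and 0.434. PtXaAlbH.01G091800.v5.1 also lost it in the fit of all 20 libraries (adjusted p = 0.449), PtXaAlbH.03G171100.v5.1 with limma-voom (adjusted p = 0.135), and both with a replicate block (adjusted p = 0.0681 and 0.078).

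The genes that set TEML2_2ox apart before chilling were, by their medians, also shifted on chilling in plants without the TEML2 construct. In a fit without any TEML2ox library, 1456 of the 1550 genes at least 2-fold higher in TEML2_2ox at SD8 had a value. Their median log2 fold change on chilling was -1.09 in TEML1ox and -1.05 in WT, against -0.049 and -0.053 over all genes. Of these 1456 genes 52.9% in TEML1ox and 51.3% in WT were at least 2-fold lower by estimate, against 20.7% and 21.0% of all genes. For 369 of the 370 genes at least 2-fold lower in TEML2_2ox the median was 0.50 in TEML1ox and 0.48 in WT. Of these 369 genes 37.7% in TEML1ox and 39.0% in WT were at least 2-fold higher by estimate, against 10.2% and 11.2% of all genes. At least 2-fold lower were 17.3% and 17.1% of them. All genes are a background not matched for abundance, and how much of these shares goes with abundance was not tested.

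The 1550 genes held 2.96 and 2.91% of the counts in the TEML2_2ox SD8 libraries that chose them. They held 0.947 and 0.890% in TEML2_1ox, 0.756 and 1.11% in WT and 1.01 to 1.79% in TEML1ox at SD8, and 0.565 to 0.853% in all 10 CH2 libraries. On an axis drawn through the TEML1ox and WT libraries, where 0 is their mean at SD8 and 1 their mean at CH2, TEML2_2ox SD8 buds lay at -0.114 and -0.122 and TEML2_1ox SD8 buds at 0.034 and 0.013. The TEML1ox and WT SD8 libraries that set the axis lay between -0.077 and 0.068, and the TEML2ox CH2 libraries between 0.957 and 1.04. On this axis both TEML2_2ox SD8 libraries stood farther from the chilled state than any other SD8 library.

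The difference in response between the lines was tested directly. It passed at 2496 genes (9.32%), with 1182 responses more positive (4.41%) and 1314 more negative (4.9%) in TEML2_2ox, and by library totals alone at 834 and 1841. The difference was at least 2-fold at 213 genes upward (0.795%) and 602 downward (2.25%). In 1166 of the 2496 genes both lines changed in the same direction and TEML2_2ox changed more, 564 upward and 602 downward. In 347 both changed in the same direction and TEML2_2ox changed less, in 171 they changed in opposite directions, in 530 only TEML2_2ox passed its own test and in 282 only TEML2_1ox did. At SD8 2375 of the 2496 (95.2%) also differed between lines, and at CH2 23 (0.921%). The response difference is by construction the CH2 line difference minus the SD8 one, so these shares are not independent of it. The count was 924 and 1460 without TEML2_2ox SD8 replicate 1 and 2, 1014 and 1604 without TEML2_2ox CH2 replicate 1 and 2, and 1061 in the fit of all 20 libraries.

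PtXaAlbH.08G111100.v5.1, with the levels given above, had a log2 fold change of -6.66 ± 0.33 in TEML2_2ox (SE, adjusted p = 2.96e-09) and 0.89 ± 0.42 in TEML2_1ox (SE, adjusted p = 0.0755), a difference of -7.55 ± 0.54 (SE, adjusted p = 3.76e-05). PtXaAlbH.15G031100.v5.1 went from 183 and 166 to 1.14 and 1.25 CPM in TEML2_2ox and from 3.94 and 3.58 to 1.42 and 0.988 in TEML2_1ox. It fell in both lines to overlapping levels, and the responses differed by -5.55 ± 0.27 (SE, adjusted p = 1.59e-06). PtXaAlbH.01G018200.v5.1 rose in both lines, by 6.64 ± 0.20 in TEML2_2ox and 3.94 ± 0.17 in TEML2_1ox on the log2 scale, a difference of 2.69 ± 0.24 (SE, adjusted p = 0.000103). PtXaAlbH.01G250800.v5.1 (2.58 ± 0.67, adjusted p = 0.0329) lost the call without TEML2_1ox SD8 replicate 2 or any 1 of the 4 TEML2_2ox libraries, with an adjusted p of up to 0.159, and in the fit of all 20 libraries (adjusted p = 0.0815).

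**Figure D5:**
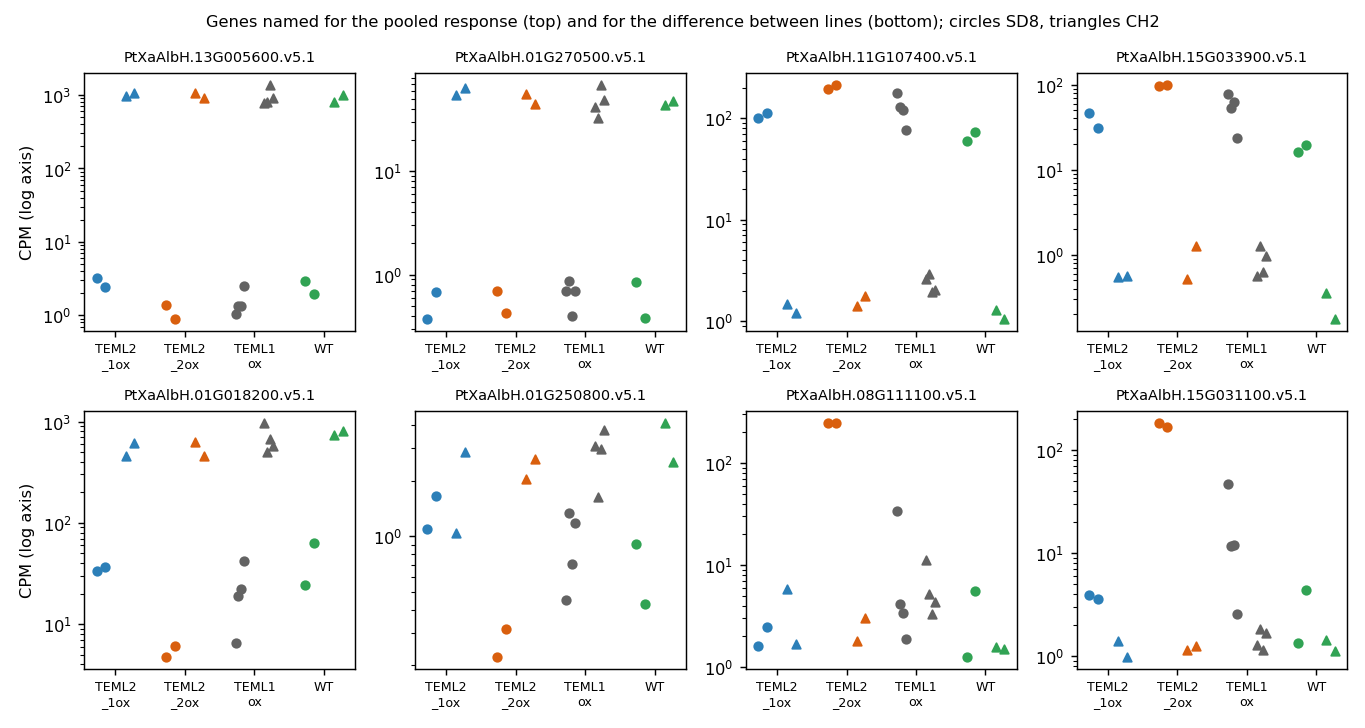
CPM on a log axis (vertical) of the genes named for the pooled response and for the difference in response between lines. Points are the 20 libraries, 1 each, by harvest for TEML2_1ox, TEML2_2ox, TEML1ox and WT. For the genes named for the difference, such as PtXaAlbH.08G111100.v5.1 at 246 and 245 CPM in TEML2_2ox and 1.60 and 2.46 in TEML2_1ox, the SD8 points of these lines lie apart.

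Against WT, the mean response of the TEML2ox lines differed at 1422 of 27337 genes (5.2%), 831 more positive (3.04%) and 591 more negative (2.16%), in a fit of all 20 libraries. Differences of at least 2-fold numbered 71 upward (0.26%) and 179 downward (0.655%), and 6395 genes had an unadjusted p under 0.05. The count rested on single WT libraries, with 10 calls without WT CH2 replicate 1, 297 without WT CH2 replicate 2 and 17 without WT SD8 replicate 1. It was 657 and 709 without TEML2_1ox SD8 or CH2 replicate 2, 538 without TEML2_2ox SD8 replicate 2, 478 without TEML2_2ox CH2 replicate 1, and 2245 and 2249 without TEML1_2ox SD8 replicate 1 and 2. With the lines of a construct pooled as 1 group, which brings the spread between lines into the p-values, it was 56. In a fit of TEML2ox and WT alone it was 2317.

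By line, the response differed from that of WT at 10 genes in TEML2_1ox (0.0366%) and at 3491 in TEML2_2ox (12.8%). In TEML2_1ox 3 were more positive (0.011%) and 7 more negative (0.0256%), and 3799 genes had an unadjusted p under 0.05. DESeq2 called 547 genes for TEML2_1ox, limma-voom 22, and library totals alone 31, 17 of them more positive. Without 1 library the TEML2_1ox count ran from 1 (TEML2_1ox SD8 replicate 2) to 145 and 146 (TEML1_2ox SD8 replicate 1 and 2). It was 41 without TEML2_1ox SD8 replicate 1, 56 and 48 without TEML2_2ox SD8 replicate 1 and 2, 16 without WT SD8 replicate 2, and 2 to 6 without WT SD8 replicate 1, either WT CH2 replicate, either TEML1_1ox SD8 replicate, either TEML1_2ox CH2 replicate, either TEML2_2ox CH2 replicate or TEML2_1ox CH2 replicate 2. Both comparisons share the WT libraries, and the difference between them is the line difference in response tested above.

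For TEML2_2ox 1927 responses were more positive (7.05%) and 1564 more negative (5.72%) than in WT, and by library totals alone 1441 and 1765. Differences of at least 2-fold numbered 329 upward (1.2%) and 701 downward (2.56%). The count was 988 without WT SD8 replicate 1, 1235 and 1875 without WT CH2 replicate 1 and 2, 2108 and 1443 without TEML2_2ox SD8 replicate 1 and 2, and 1033 and 2167 without TEML2_2ox CH2 replicate 1 and 2.

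PtXaAlbH.02G158400.v5.1 rose in both TEML2ox lines and overlapped between harvests in WT. It went from 7.85 and 6.17 to 32.7 and 18.5 CPM in TEML2_1ox and from 4.25 and 3.20 to 38.1 and 33.6 in TEML2_2ox. WT stood at 35.2 and 57.4 CPM at SD8 and 51.9 and 40.9 at CH2. The SD8 levels of both TEML2ox lines were thus below WT, and the TEML2ox response exceeded that of WT by 2.56 ± 0.48 on the log2 scale (SE, adjusted p = 0.012). The call was lost without WT SD8 replicate 1 or either WT CH2 replicate, with an adjusted p of up to 0.0751, and with the lines of a construct pooled (adjusted p = 0.0838). For TEML2_2ox alone the difference from WT was 3.26 ± 0.57 (SE, adjusted p = 0.00335), and for TEML2_1ox 1.86 ± 0.55 (SE, adjusted p = 0.149).

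PtXaAlbH.05G194300.v5.1 fell more in both TEML2ox lines than in WT. It went from 72.1 and 74.9 to 22.8 and 21.1 CPM in TEML2_1ox, from 105 and 117 to 17.4 and 20.4 in TEML2_2ox, and from 47.1 and 46.2 to 29.7 and 30.9 in WT. Both TEML2ox lines were above WT at SD8 and below it at CH2. TEML1ox was also above WT at SD8 and below it at CH2, with means of 64.7 and 22.5 CPM. The TEML2ox response differed from that of TEML1ox by -0.63 ± 0.09 (SE, adjusted p = 0.00411). The response differed from WT by -1.12 ± 0.12 in TEML2_1ox (SE, adjusted p = 0.00217) and -1.93 ± 0.12 in TEML2_2ox (SE, adjusted p = 9.42e-07), and no single library left out ended the TEML2_1ox call. PtXaAlbH.11G031500.v5.1 fell in all 3, to 16.3 and 16.7 CPM in TEML2_1ox, 15.5 and 15.3 in TEML2_2ox and 6.10 and 8.70 in WT, from 26.2 to 39.2 at SD8. In TEML1ox the gene went from a mean of 30.7 to 14.2 CPM. Its TEML2ox response was not called different from that of TEML1ox (adjusted p = 0.496). Its response was less negative than in WT by 1.50 ± 0.19 in TEML2_1ox (SE, adjusted p = 0.00841), a call lost without TEML2_1ox SD8 replicate 2 (adjusted p = 0.0706) and with only TEML2_1ox and WT in the fit (adjusted p = 0.0863).

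PtXaAlbH.08G164800.v5.1 fell in both TEML2ox lines, from 16.5 and 20.3 to 7.02 and 8.94 CPM in TEML2_1ox and from 27.7 and 30.0 to 5.09 and 6.47 in TEML2_2ox. In WT it was at 11.8 and 15.3 CPM at SD8 and 32.5 and 19.8 at CH2. The WT libraries were thus higher than those of TEML2ox at CH2 and lower at SD8. TEML1ox also lay above WT at SD8, at 18.5 to 105 CPM, and below it at CH2, at 8.25 to 12.97. The TEML2ox response was not called different from that of TEML1ox (0.35 ± 0.34, SE, adjusted p = 0.740). From that of WT it differed by -2.71 ± 0.41 (SE, adjusted p = 0.00759). The call was lost without WT SD8 replicate 1 (adjusted p = 0.0568) or WT CH2 replicate 1 (adjusted p = 0.0583), and with the lines of a construct pooled (adjusted p = 0.0742).

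Between the constructs, the mean response of the TEML2ox lines differed from that of the TEML1ox lines at 57 of 27337 genes (0.209%), 23 more positive (0.0841%) and 34 more negative (0.124%). At an unadjusted p under 0.05 there were 3268, DESeq2 called 402, and with the lines of a construct pooled as 1 group edgeR called 0, with 1761 at an unadjusted p under 0.05. Without 1 library the count ran from 20 to 238. It was 97 and 26 without TEML1_1ox SD8 replicate 1 and 2, 238 without TEML1_2ox SD8 replicate 2, 35 and 36 without TEML2_1ox SD8 replicate 1 and 2, and 20 and 29 without TEML2_2ox SD8 replicate 1 and 2. It was 97 without either WT SD8 replicate, 32 and 95 without TEML1_1ox CH2 replicate 1 and 2, 21 without TEML1_2ox CH2 replicate 2, 26 without TEML2_1ox CH2 replicate 2, and 27 and 33 without TEML2_2ox CH2 replicate 1 and 2.

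PtXaAlbH.03G135900.v5.1 rose in TEML2_1ox from 8.65 and 11.4 to 42.8 and 26.4 CPM and in TEML2_2ox from 2.91 and 2.97 to 19.2 and 12.8. In TEML1_1ox it went from 7.09 and 5.91 to 2.31 and 2.35 CPM, and in TEML1_2ox it stood at 8.21 and 10.9 at SD8 and 9.43 and 10.2 at CH2. The TEML2ox libraries did not overlap between harvests, and TEML2ox exceeded TEML1ox in response by 2.84 ± 0.25 (SE, adjusted p = 8.67e-05). No single library left out ended this call, and with the lines pooled its adjusted p was 0.755.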

How the data were processed

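Polyadenylated RNA of apical buds was sequenced from stranded mRNA libraries, per the labels' protocols. The authors deposited whole-number read counts per gene in 1 table per harvest, and both tables list the same 31823 genes. HISAT2 is named per the submitters' processing notes. No counting program, genome build, strand setting or filter is given in the sources used here, so reads of near-identical or overlapping genes may be split or lost. Columns were assigned to samples by name and groups taken from genotype and treatment labels.

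The tables were joined on gene identifier and analysed with edgeR 4.0.16 (R 4.3.3): filterByExpr, TMM scaling, quasi-likelihood F test, Benjamini-Hochberg adjustment over all genes tested and a threshold of 0.05. The pooled response was fitted on 8 libraries with line and harvest terms (5 residual degrees of freedom, biological coefficient of variation 0.120). Single lines, their difference in response and their differences at each harvest came from a fit of 4 groups (4 residual degrees of freedom, 0.0854). Comparisons with WT and TEML1ox came from 10 groups of all 20 libraries (10 residual degrees of freedom, 0.106). The SE is the absolute log2 fold change over the square root of F. Log2 CPM for principal components and distances had a prior count of 2. Counts per library and shares were compared by exact permutation tests. The fits were tested on simulated data with few changed genes, as many raised as lowered. In the pooled response 75.5% of genes were called, so those simulations do not bear on its split by direction.

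Without gene names, each comparison names up to 2 identifiers per direction: those with the largest fold change among called genes with at least 10 counts in every library compared, and for single lines those with the largest difference in mean CPM and no overlap between harvests. Lists of gene families and cell type markers match on names and were not used. Libraries, comparisons and rules were chosen with earlier results of these data known. Alternatives were RLE, upper-quartile and library-total scaling, DESeq2 1.42.0, limma-voom (limma 3.58.1), 2 other low-count filters, a replicate block, an adjusted p under 0.01, each library left out, and other sets of libraries in the fit.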

Additional observations from a re-analysis of the deposited data

Results flagged for a closer look

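In 4 of 74 groups of 4 libraries examined, 1 library lay far from the other 3. Chance flags about 1 group in 20 when all 4 libraries come from 1 distribution. Each group here mixed 2 libraries of each line, so that rate does not carry over, and a split by line cannot be flagged. PtXaAlbH.01G091800.v5.1 was at 0.623 CPM in TEML2_2ox SD8 replicate 1 against 0.399 to 0.418 in the other SD8 libraries. PtXaAlbH.01G318200.v5.1 was at 1.07 CPM in TEML2_1ox CH2 replicate 2 against 0.655 to 0.697 in the other CH2 libraries. PtXaAlbH.15G033900.v5.1 was at 1.25 CPM in TEML2_2ox CH2 replicate 2 against 0.512 to 0.564. The 100 most abundant genes held 19.2% of the counts in TEML2_1ox CH2 replicate 1 against 18.5 to 18.6% in the others.

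Responses to chilling differed between groups by a direct test of the difference. Between TEML2_2ox and TEML2_1ox this held for 2496 genes, among them PtXaAlbH.01G018200.v5.1 (2.69 on the log2 scale), PtXaAlbH.01G250800.v5.1 (2.58), PtXaAlbH.08G111100.v5.1 (-7.55) and PtXaAlbH.15G031100.v5.1 (-5.55). Between TEML2ox and WT it held for 1422 genes. PtXaAlbH.15G059900.v5.1 had a log2 difference of 2.92 (adjusted p = 0.0276) and PtXaAlbH.02G158400.v5.1 one of 2.56. PtXaAlbH.17G081600.v5.1 had -3.00 (adjusted p = 0.0152) and PtXaAlbH.08G164800.v5.1 had -2.71. The PtXaAlbH.15G059900.v5.1 call was lost without WT SD8 replicate 2, either WT CH2 replicate, TEML2_1ox or TEML2_2ox SD8 replicate 2 or TEML2_2ox CH2 replicate 1 (adjusted p up to 0.149), with limma-voom (adjusted p = 0.146) and with the lines of a construct pooled (adjusted p = 0.0838). Its WT SD8 libraries held 3.37 and 22.0 CPM, and without the second the difference was 1.01. The PtXaAlbH.17G081600.v5.1 call was lost without WT SD8 or CH2 replicate 1 (adjusted p up to 0.113) and with the lines pooled (adjusted p = 0.0742).

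Between TEML2_1ox and WT the response differed at 10 genes. The named ones were PtXaAlbH.11G031500.v5.1 (1.50), PtXaAlbH.03G173500.v5.1 (0.88, adjusted p = 0.0353), PtXaAlbH.05G194300.v5.1 (-1.12) and PtXaAlbH.17G088300.v5.1 (-1.08, adjusted p = 0.0207). Leaving out 1 library ended the PtXaAlbH.03G173500.v5.1 call in 11 of 20 cases (adjusted p up to 0.260), and that of PtXaAlbH.17G088300.v5.1 without TEML2_1ox SD8 or CH2 replicate 2 or WT SD8 or CH2 replicate 1 (adjusted p up to 0.120). With only TEML2_1ox and WT in the fit both had an adjusted p of 0.0746, and with a replicate block that of PtXaAlbH.03G173500.v5.1 was 0.0639.

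Between TEML2_2ox and WT it differed at 3491 genes, among them PtXaAlbH.02G158400.v5.1 (3.26), PtXaAlbH.15G059900.v5.1 (3.18, adjusted p = 0.0244), PtXaAlbH.06G025300.v5.1 (-6.60, adjusted p = 0.0457) and PtXaAlbH.15G031100.v5.1 (-6.03, adjusted p = 0.00703). The PtXaAlbH.06G025300.v5.1 call was lost in 13 of 20 cases with 1 library left out (adjusted p up to 0.164), that of PtXaAlbH.15G059900.v5.1 without either TEML2_2ox SD8 replicate, TEML2_2ox CH2 replicate 1, WT SD8 replicate 2 or WT CH2 replicate 1 (adjusted p up to 0.101), with a difference of 1.26 without WT SD8 replicate 2, and that of PtXaAlbH.15G031100.v5.1 without WT CH2 replicate 1 (adjusted p = 0.0613). With limma-voom PtXaAlbH.06G025300.v5.1 had an adjusted p of 0.174 and PtXaAlbH.15G059900.v5.1 one of 0.211.

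Between TEML2ox and TEML1ox it differed at 57 genes. PtXaAlbH.02G158400.v5.1 (3.17, adjusted p = 0.00304) and PtXaAlbH.03G135900.v5.1 (2.84) had the more positive response in TEML2ox. PtXaAlbH.03G038500.v5.1 (-2.60, adjusted p = 0.0402) and PtXaAlbH.01G318200.v5.1 (-2.00, adjusted p = 0.0139) had the more negative one. The PtXaAlbH.03G038500.v5.1 call was lost in 12 of 20 cases with 1 library left out (adjusted p up to 0.134), and that of PtXaAlbH.01G318200.v5.1 without TEML2_2ox SD8 replicate 1, TEML2_2ox CH2 replicate 1 or TEML1_2ox CH2 replicate 2 (adjusted p up to 0.0624). With limma-voom these had an adjusted p of 0.0746 and 0.061, and with a replicate block that of PtXaAlbH.03G038500.v5.1 was 0.0509. With the lines of a construct pooled none of these 4 passed.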

How the results depend on the processing

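The pooled response, the response of each line and the genes shared by the lines stayed within 1.5 times their counts under every alternative tried, apart from the test against a 2-fold change (6082 genes). With single libraries left out the counts were 19202 to 19969 for the pooled response, 16537 to 18084 for TEML2_1ox, 17144 to 19868 for TEML2_2ox, 14444 to 15235 for both lines in the same direction, 924 to 2604 for the response difference of the lines, 3929 to 8329 for the lines at SD8 and 11 to 211 at CH2. Against WT they were 10 to 2249 for TEML2ox, 1 to 146 for TEML2_1ox and 988 to 4327 for TEML2_2ox, and against TEML1ox 20 to 238. The difference in detected genes was -1364 to -1178, and that in the share of the 100 most abundant genes 2.32 to 4.02 points, against 0.640 for the 10 most abundant. At an adjusted p under 0.01 the response difference of the lines counted 846 genes, the lines at SD8 4470 and at CH2 14, TEML2ox against WT 75, TEML2_1ox against WT 2, TEML2_2ox against WT 893 and TEML2ox against TEML1ox 16. DESeq2 gave 144 for the lines at CH2, 2267 for TEML2ox and 547 for TEML2_1ox against WT, and 402 against TEML1ox. For TEML2_1ox against WT, upper-quartile scaling and limma-voom each gave 22, library totals alone 31, and the filter of 50 counts 16. In the fit of all 20 libraries the response difference counted 1061 and the lines at CH2 18. With only the lines compared in the fit, TEML2ox against WT gave 2317 and TEML2_1ox 2. With the lines of a construct pooled, TEML2ox against WT gave 56 and against TEML1ox 0. The causes were not tested. None of the 40 named results changed direction, and 21 kept their call under every alternative.

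Deviations of same-numbered replicates correlated at -0.141 to 0.055 over the 6 pairs of TEML2ox groups. Over the 45 pairs of all 10 groups they correlated at -0.252 to 0.230. Whether replicate numbers pair the samples cannot be told from these correlations. With a replicate block the pooled response counted 19814, the response difference 2005, the lines at SD8 7049 and at CH2 26, TEML2ox against WT 1079, TEML2_1ox against WT 4 and TEML2_2ox against WT 3080. The CH2 groups had the lowest value, so, as a choice made after seeing the data, the 4 CH2 libraries were fitted alone, with 38 genes, with the replicate block, with 28, and with the numbers crossed, with 425. Precision is limited by 2 libraries per line and harvest.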
